A study of Equus caballus with 19 samples.

Results

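Complement components and regulators were examined as a set of 9 genes in equine tenocytes, the fibroblasts of tendon, grown in 3D collagen gels. The genes were chosen by name and role, with earlier results of these data known. They cover the classical pathway proteases C1R and C1S and the convertase components C2, C3 and CFB. They also cover the soluble regulators CFI and SERPING1 and the membrane regulators CD55 and CD59. Of these 9 genes, 8 were found by name among the 29196 gene names of each count table, C3 was not analysed here, and 7 passed the filter on low values in both batches.

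Complement is a cascade of plasma and cell surface proteins that tags microbes and damaged cells for removal or lysis. In the classical pathway the protease C1r is activated on bound C1q and activates C1s, which cleaves C4 and C2. In the alternative pathway factor B takes the place of C2, and both routes build convertases that cleave C3. Host cells are spared by C1 inhibitor (the product of SERPING1), by factor I, which degrades the convertase subunits C3b and C4b, and by the membrane proteins CD55, which speeds the decay of convertases, and CD59, which blocks the membrane attack complex. The liver makes most plasma complement, and fibroblasts transcribe several of these genes as well.

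Cells of wild type horses came from the superficial digital flexor tendon, the energy-storing tendon of the equine limb that is prone to injury. All gels were made of bovine type I collagen, cultured in medium with fetal bovine serum and harvested at day 14. In the first batch, tenocyte lines 1 to 5 were cultured without cytokine (control) or with 1 nM IL-1β, a proinflammatory cytokine. In the second batch, lines 6 to 8 were cultured as control, with 1 nM IL-1β, or with 1 nM IL-1β + 100 ng/ml IL1Ra, the natural antagonist of the IL-1 receptor. There was no IL1Ra condition without IL-1β. Each line came from 1 donor and gave 1 library per condition, so n is the number of lines, and the comparisons ask whether IL-1β altered these transcripts and whether IL1Ra moved them away from the IL-1β level.

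Values are normalised read counts, which depend on gene length as well as on expression. Levels are therefore compared here only between libraries and not between genes. Low values within a library differed slightly between genes, such as 0.869 for C9 and 0.889 for C4BPA in the control of line 2. Whether the scaling held a term per gene was not tested. With M for counts × 1e6, they summed to 43.4 to 49.2 M per library in the first batch and 24.96 to 34.6 M in the second, and each batch was normalised on its own. In bulk RNA, fewer cells of a type and less RNA per cell cannot be told apart. The tenocyte label was checked against 12 tendon fibroblast markers, of which 11 were found by name. At least 9 of these reached a mean of 10 normalised counts in each condition of both batches. Controls of lines 6 to 8 differed, with 51392, 1069 and 131 of COMP, 4720, 266 and 105 of SCX, and 4059, 151 and 11.5 of MKX. The second batch means of these genes thus rest largely on line 6. PDGFRB went the other way, at 8172, 15710 and 19611. COL1A1, the main collagen of tendon, ranged from 453618 to 875669 normalised counts in first batch controls and from 89921 to 297566 with IL-1β, while TNMD, a defining marker of mature tenocytes, was listed at 0 in every first batch library and reached at most 1.00 in the second. Genes were called differentially expressed (DE) in limma on log2(normalised count + 1) where the adjusted p was below 0.05 and the log2-fold change was 1 or more in either direction. On this scale a change in a gene with few counts appears smaller than it is.

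In the first batch, 2 of the 7 tested complement genes were DE with IL-1β, and both were regulators that fell. CFI and CD55 were lower with IL-1β in 5 of 5 lines, whereas CFB, C2 and SERPING1 were each higher in 4 of 5 lines and C1R and C1S in 2 of 5, none of them DE. Over all 14719 genes tested, 7.90% were DE downwards and 4.91% upwards. With the line as a block, which compares libraries within each line, the same 2 complement genes were DE downwards, beside 10.2% of all genes downwards and 16.2% in either direction. The median log2-fold change was −0.34 over the 7 genes and −0.0034 over all genes.

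CFI encodes factor I, the serine protease of plasma that inactivates C3b and C4b. Its normalised counts in lines 1 to 5 were 59.4, 54.3, 286, 245 and 130 in control and 30.4, 23.1, 50.7, 44.2 and 43.6 with IL-1β. The lowest control library lay above the highest IL-1β library, so the groups did not overlap, as was also the case, in the downward direction, for 10.2% of all genes tested. The mean was 155 ± 106 (SD, n = 5) in control and 38.4 ± 11.3 (SD, n = 5) with IL-1β. The log2-fold change was −1.72 (SE 0.50, limma adjusted p = 0.0256, and 0.0043 with the line as a block). Lines 3 and 4, with the highest control counts, had the lowest ratios, at −2.47 and −2.44 on the log2 scale, and line 1 the ratio nearest to 0, at −0.94. Without line 3, 4 or 5 the fit without a block no longer called CFI DE (adjusted p = 0.0603 to 0.0873), whereas with the block it was DE without any one line (adjusted p = 0.0059 to 0.0176).

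CD55 encodes decay-accelerating factor, which is anchored in the cell membrane and dismantles C3 convertases. Its normalised counts in lines 1 to 5 were 82.3, 189, 28.7, 137 and 119 in control. With IL-1β they were 86.8 in line 2, 5.42 in line 4 and 3.25 in line 5, and CD55 was listed at 0 in lines 1 and 3. All lines had less CD55 with IL-1β, but the groups overlapped, since line 2 with IL-1β lay above the controls of lines 1 and 3. The log2-fold change was −4.32 (SE 1.13, limma adjusted p = 0.0166, and 0.0039 with the line as a block). The listed 0 of lines 1 and 3 entered the fit as values, so the size depends on the number added before the log. With 5 added in place of 1 it was −3.13, and with 0.5 added −4.78, DE in both. The within-line log2 ratio was −1.11 in line 2 and −4.42 to −6.38 in the other lines. Leaving out line 1, 4 or 5 ended the call without a block (adjusted p = 0.0601 to 0.0764), and with the block CD55 was DE without any one line (adjusted p = 0.0014 to 0.0184). In the RefSeq annotation of a newer horse assembly CD55 overlaps the locus LOC138924039, so the share of its reads from that locus was not tested.

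C1R and C1S encode the paired proteases of the C1 complex and lie next to each other in RefSeq. C1R normalised counts in lines 1 to 5 were 4616, 961, 1295, 1992 and 1855 in control and 765, 1423, 4279, 1768 and 794 with IL-1β. C1S normalised counts were 20927, 7244, 8214, 11359 and 7018 in control and 3576, 8778, 30868, 9868 and 3117 with IL-1β. The groups overlapped for both genes and the lines went in opposite directions: line 1 had the highest control and a log2 ratio of −2.59 for C1R and −2.55 for C1S, while line 3 had the highest IL-1β value and ratios of 1.72 and 1.91. The log2-fold change was −0.34 for C1R (SE 0.52, 95% interval −1.49 to 0.81, limma adjusted p = 0.666) and −0.35 for C1S (SE 0.58, 95% interval −1.63 to 0.93, adjusted p = 0.696). Without line 1 the sign turned, to 0.22 for C1R and 0.20 for C1S, with adjusted p of 0.777 and 0.842.

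C2 and CFB, also neighbours in RefSeq, encode the catalytic subunits of the classical and alternative C3 convertases. C2 normalised counts in lines 1 to 5 were 961, 178, 101, 77.3 and 56.9 in control and 95.4, 238, 1272, 141 and 69.1 with IL-1β. As with C1R and C1S, line 1 was the highest control and line 3 the highest IL-1β library, and the groups overlapped. The C2 log2-fold change was 0.38 (SE 0.90, limma adjusted p = 0.794) and turned to −0.44 without line 3.

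CFB normalised counts in lines 1 to 5 were 61.9, 49.6, 115, 16.5 and 18.7 in control and 30.1, 156, 576, 183 and 77.9 with IL-1β. CFB was higher with IL-1β in lines 2 to 5, by 1.63 to 3.40 on the log2 scale, and lower in line 1, by a log2 ratio of −1.01, so the groups overlapped. The log2-fold change was 1.67 (SE 0.77, 95% interval −0.04 to 3.38, limma adjusted p = 0.135, and 0.0582 with the line as a block), which missed the threshold in both fits. Without line 1 it was 2.34, with an adjusted p of 0.0569 without the block and 0.0045 with it, so 1 line set this call. Leaving out any other line gave 1.23 to 1.68 (adjusted p = 0.139 to 0.364 without the block). In RefSeq CFB overlaps NELFE, a gene of transcription elongation, and the share of reads between them was not tested.

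SERPING1 encodes C1 inhibitor, the serpin that blocks C1r and C1s. Its normalised counts in lines 1 to 5 were 13619, 3032, 4038, 3042 and 2948 in control and 5145, 5075, 4691, 3232 and 3156 with IL-1β. Apart from line 1, whose control stood far above the other controls, each line was slightly higher with IL-1β, by 0.09 to 0.74 on the log2 scale. The log2-fold change was −0.05 (SE 0.40, 95% interval −0.93 to 0.82, limma adjusted p = 0.941), and 0.29 without line 1 (adjusted p = 0.310). Line 1 was thus the control library with the most C1R, C1S, C2 and SERPING1.

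**Figure D1:**
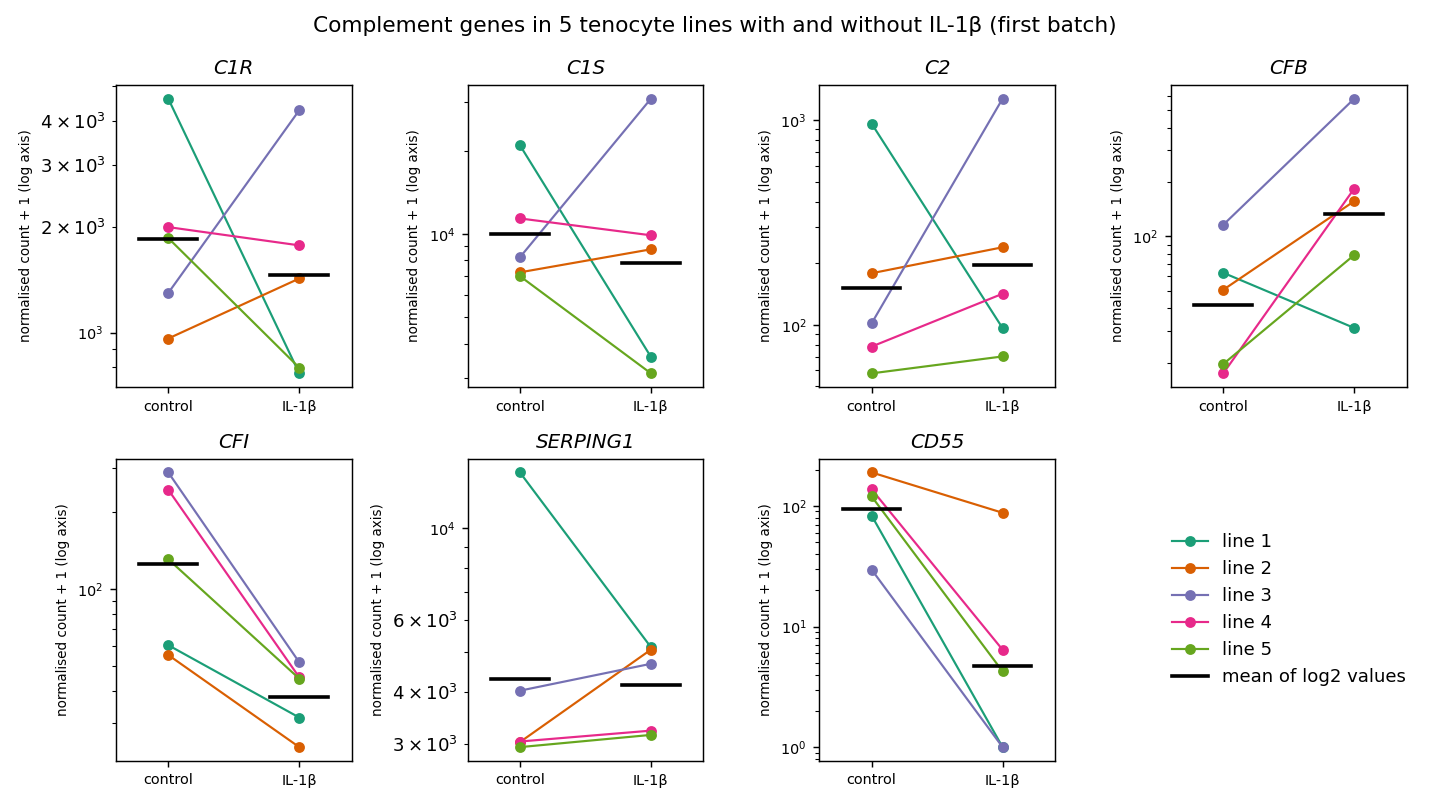
Normalised counts + 1 (log axis) of 7 complement genes in control and IL-1β libraries of tenocyte lines 1 to 5, with 1 coloured line per tenocyte line and black bars at the mean of the log2 values. CFI and CD55 slope down in 5 of 5 lines, while C1R, C1S and C2 cross, with line 1 going down and line 3 going up.

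In the second batch, 0 of the 7 complement genes were DE between IL-1β and control in limma without a block, and 0.341% of all 16705 genes tested were DE. At an unadjusted p under 0.05 there were 3 of the 7 complement genes and 1907 of the 16705. With the line as a block CD55 was DE downwards, beside 2.59% of all genes downwards and 2.59% upwards. C1R, CFI, SERPING1 and CD55 were lower with IL-1β in 3 of 3 lines, 4 of the 7 genes, beside 18.9% of all genes tested. The groups did not overlap for C1R and CD55, both lower, against 7.61% of all genes. The median log2-fold change was −0.97 over the 7 genes and −0.0084 over all genes. The same 3 control libraries and 3 IL-1β libraries enter the IL1Ra comparisons, so the 3 comparisons of this batch are not independent of each other.

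CD55 normalised counts in lines 6 to 8 were 139, 24.9 and 14.6 in control, 3.42, 1.22 and 4.77 with IL-1β and 30.8, 4.26 and 4.49 with IL-1β + IL1Ra. The lowest control lay above the highest IL-1β library, and the IL-1β + IL1Ra library of line 6 lay within the control range while those of lines 7 and 8 lay below it. IL-1β differed from control by −3.32 on the log2 scale (SE 1.01, limma adjusted p = 0.253, and 0.0372 with the line as a block). The call with the block was lost without any one line (adjusted p = 0.0924 to 0.213), each time on 2 lines. No IL-1β library reached 10 normalised counts of CD55, which passed the filter through the other conditions and did not pass the filter at 50. IL-1β + IL1Ra was below control in 3 of 3 lines, at −1.98 (SE 1.01, adjusted p = 0.951), and above IL-1β in 2 of 3 lines, at 1.34 (SE 1.01, adjusted p above 0.99).

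CFI normalised counts in lines 6 to 8 were 336, 54.7 and 49.9 in control, 111, 50.7 and 20.9 with IL-1β and 394, 64.7 and 63.8 with IL-1β + IL1Ra. Line 6 had the highest count in every condition, so all groups overlapped, and within each line IL-1β gave the lowest and IL-1β + IL1Ra the highest value. IL-1β against control was −0.97 (SE 1.01, limma adjusted p = 0.825, and 0.172 with the line as a block). IL-1β + IL1Ra differed from control by 0.27 (SE 1.01) and from IL-1β by 1.24 (SE 1.01), neither DE in limma with or without the block. These SE values are without the block, and the log2 ratios to control within lines 6 to 8 were 0.23, 0.24 and 0.35.

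SERPING1 normalised counts in lines 6 to 8 were 3591, 17564 and 31803 in control, 1756, 8082 and 4964 with IL-1β and 6828, 77126 and 27840 with IL-1β + IL1Ra. IL-1β gave the lowest value within each line, and line 6 was the lowest line in each condition, so the groups overlapped. IL-1β against control was −1.61 (SE 1.07, limma adjusted p = 0.661, and 0.0764 with the line as a block). IL-1β + IL1Ra was higher than IL-1β in 3 of 3 lines, by 2.57 (SE 1.07, adjusted p above 0.99, and 0.184 with the block), and higher than control in 2 of 3 lines, by 0.96 (SE 1.07).

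C1R normalised counts in lines 6 to 8 were 2704, 3826 and 6754 in control, 1907, 2309 and 1460 with IL-1β and 6853, 25599 and 13768 with IL-1β + IL1Ra. The 3 conditions did not overlap, with IL-1β lowest, control between and IL-1β + IL1Ra highest. IL-1β against control was −1.15 (SE 0.50, limma adjusted p = 0.438, and 0.155 with the line as a block).

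C1S normalised counts in lines 6 to 8 were 8244, 19420 and 17370 in control, 9924, 11519 and 3589 with IL-1β and 19634, 52019 and 28909 with IL-1β + IL1Ra. Every IL-1β + IL1Ra library lay above every control and IL-1β library, while control and IL-1β overlapped and line 6 was slightly higher with IL-1β. IL-1β against control was −0.92 (SE 0.56, limma adjusted p = 0.610).

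C2 normalised counts in lines 6 to 8 were 46.4, 1365 and 1384 in control, 109, 541 and 215 with IL-1β and 141, 5582 and 2545 with IL-1β + IL1Ra. Line 6 was the lowest line in each condition and went up with IL-1β while lines 7 and 8 went down, so the groups overlapped and the spread was wide. IL-1β against control was −0.93 (SE 1.66, limma adjusted p = 0.913, and 0.501 with the line as a block). On lines 7 and 8 alone, with the block, C2 was DE at −2.01 (adjusted p = 0.0149), so line 6 set this value. That fit was added after seeing the data. Without line 7 C2 differed by −0.73 and without line 8 by −0.06, DE in neither case with the block.

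CFB normalised counts in lines 6 to 8 were 204, 37.7 and 85.2 in control, 187, 258 and 465 with IL-1β and 1849, 1195 and 845 with IL-1β + IL1Ra. The IL-1β + IL1Ra libraries lay above all others, while control and IL-1β overlapped, since line 6 was close to level between them. IL-1β against control was 1.68 (SE 0.62, limma adjusted p = 0.338, and 0.137 with the line as a block). Without line 6 it was 2.59, with an adjusted p of 0.0647, and 0.0131 with the block, a fit added after seeing the data. Without line 7 it was 1.16 (adjusted p = 0.772) and without line 8 it was 1.31 (adjusted p above 0.99). Each of these fits rests on 2 lines, and with the block CFB was not DE without line 7 or 8.

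**Figure D2:**
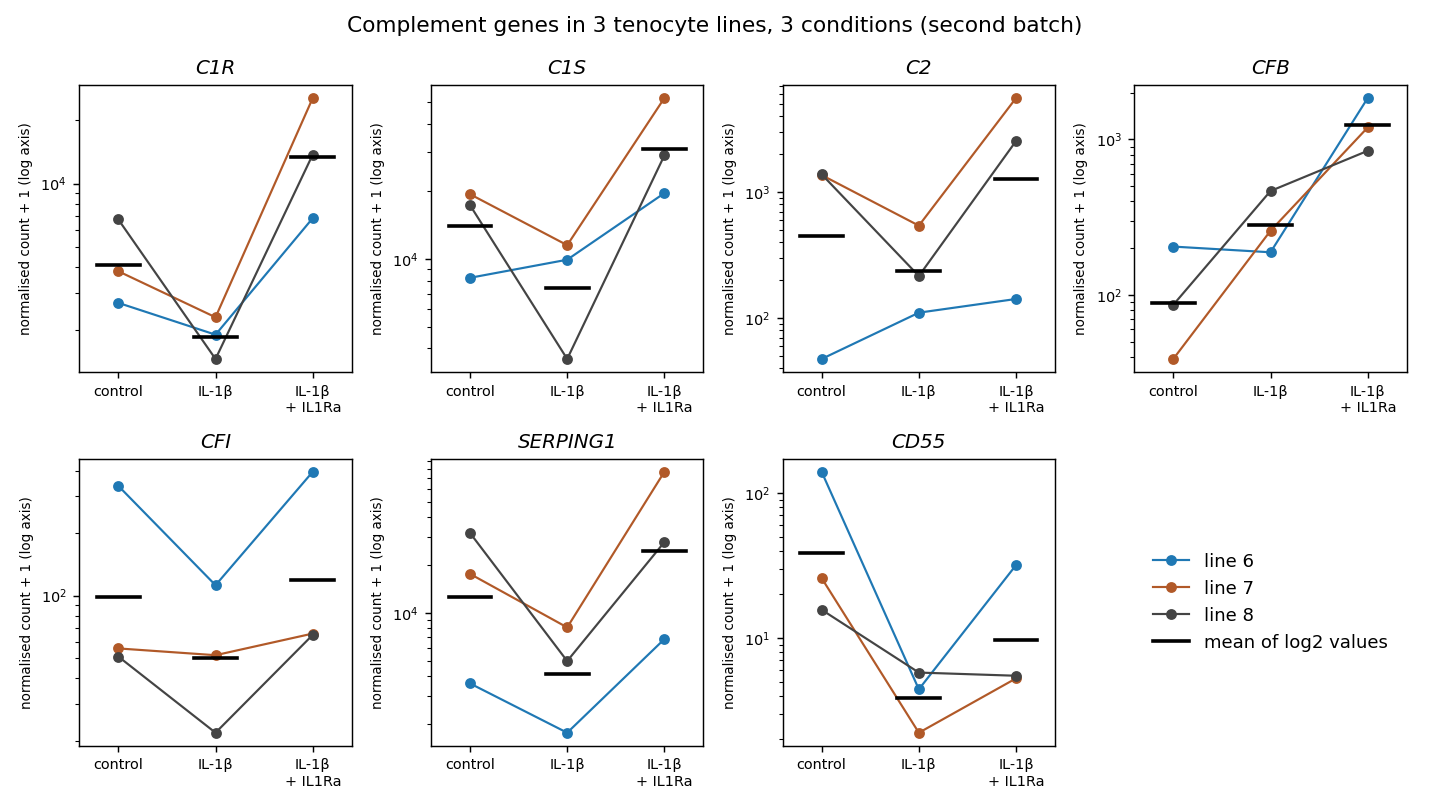
Normalised counts + 1 (log axis) of 7 complement genes in control, IL-1β and IL-1β + IL1Ra libraries of lines 6 to 8, with 1 coloured line per tenocyte line and black bars at the mean of the log2 values. C1R, C1S and CFB are highest with IL-1β + IL1Ra without overlap, while CD55 is highest in control in each line.

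IL-1β + IL1Ra was higher than control in 3 of 3 lines for C1R, C1S, C2, CFB and CFI, 5 of the 7 genes, beside 20.1% of all genes tested. The groups did not overlap for C1R, C1S and CFB, 3 of 7 genes, against 5.79% of all genes. However, 0 of the 7 were DE in limma, with or without the line as a block, where 0.0120% and 0.251% of all genes were DE. At an unadjusted p under 0.05, without the block, there were 2 of the 7 complement genes and 948 of all 16705. CFB was furthest from control, at 3.81 (SE 0.62, 95% interval 2.39 to 5.22, adjusted p = 0.203, and 0.0605 with the block), with within-line log2 ratios of 3.18, 4.95 and 3.29. Without line 6, on lines 7 and 8 alone, CFB was DE at 4.12 (adjusted p = 0.0456). Without line 7 or line 8, 0 of the 7 genes were DE. C1R was 1.70 above control (SE 0.50, adjusted p = 0.650, and 0.161 with the block), C1S 1.14 (SE 0.56, adjusted p = 0.939) and C2 1.50 (SE 1.66, adjusted p above 0.99). The median was 1.14 over the 7 genes and 0.0095 over all genes.

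Between IL-1β + IL1Ra and IL-1β, the mean was higher with IL1Ra for 7 of 7 genes, and 6 of 7, all but CD55, were higher in 3 of 3 lines, beside 15.6% of all genes. Again C1R, C1S and CFB did not overlap, against 3.12% of all genes. In limma 0 of the 7 genes were DE without the block, as were 0% of all genes, and 0 with the block, where 0.00599% of all genes were DE. At an unadjusted p under 0.05 without the block, there were 4 of 7 complement genes and 464 of the 16705 genes. The difference was 2.85 for C1R (SE 0.50, 95% interval 1.70 to 4.00, adjusted p = 0.625, and 0.140 with the block), 2.06 for C1S (SE 0.56), 2.43 for C2 (SE 1.66) and 2.12 for CFB (SE 0.62), the last 3 with adjusted p above 0.99. The median was 2.12 over the 7 genes and 0.0088 over all genes. CFB thus lay in the order control, IL-1β, IL-1β + IL1Ra in lines 7 and 8, unlike C1R, SERPING1 and CFI, for which IL-1β gave the lowest value in each line.

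**Figure D3:**
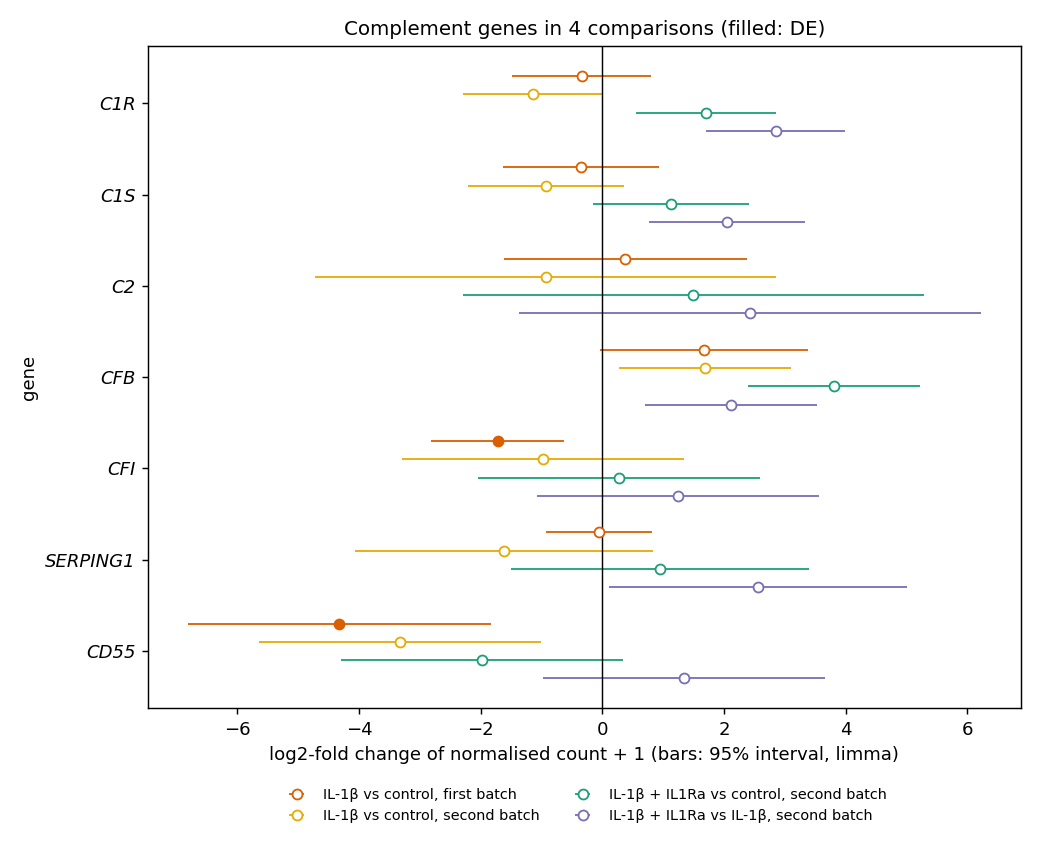
Log2-fold changes (x axis) of 7 complement genes (y axis) in the 4 comparisons, from limma without a block, with 95% intervals as bars and filled points for DE genes. The 2 filled points are CFI at −1.72 and CD55 at −4.32 in the first batch, and the IL-1β + IL1Ra points of C1R, C1S, C2, CFB and SERPING1 lie to the right of 0.

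CD59, the inhibitor of the membrane attack complex, did not pass the filter in either batch. It was listed at 0 in 8 of the 10 first batch libraries, with 0.869 in the control and 1.22 in the IL-1β library of line 1, and at 0 in 9 of 9 libraries of the second. EIF2S2, a translation factor that every cell uses, was also listed at 0 in 3 of 10 and 6 of 9 libraries, so a listed 0 is not read here as absence of the transcript.

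Other complement genes were examined as a list of 45 names chosen by role, with earlier results of these data known. Of these names, 36 were found. In the first batch 11 were tested, of which 2 rose and 1 fell with IL-1β, beside 4.91% and 7.90% of all genes. With the block 3 rose and 1 fell, beside 16.2% of all genes DE in either direction. The median log2-fold change over these 11 genes was 0.01. COLEC12, a scavenger receptor of the collectin family, had 2795, 1750, 15677, 9769 and 5387 normalised counts in controls of lines 1 to 5 and 54.2, 145, 681, 705 and 94.9 with IL-1β. The groups did not overlap, as was the case in the downward direction for 10.2% of all genes. COLEC12 fell by 4.67 on the log2 scale (SE 0.82, limma adjusted p = 0.0025). The terminal component gene C7 had 62.5, 55.9, 117, 76.9 and 102 normalised counts in control and 129, 132, 169, 230 and 196 with IL-1β, and rose by 1.06 (SE 0.27, limma adjusted p = 0.0147).

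C5AR1, the receptor for the anaphylatoxin C5a, had 19.3, 20.1, 2.81, 5.82 and 1.10 normalised counts in control and 136, 50.4, 185, 25.6 and 29.0 with IL-1β. C5AR1 rose by 3.09 on the log2 scale (SE 0.79, limma adjusted p = 0.0151). Controls of lines 3 to 5 lay below 10 normalised counts, so C5AR1 passed the filter through its IL-1β libraries. C3AR1, the C3a receptor, was higher in 5 of 5 lines, at 2.53 (SE 1.26, adjusted p = 0.164), and was DE only in the fit with the block (adjusted p = 0.0185). Both receptors are also carried by myeloid cells. The summed level of 10 leukocyte markers ranged from 347 to 436 normalised counts in first batch controls and from 497 to 1615 with IL-1β. Most of the sum with IL-1β was CD68, at 296 to 1359, whereas PTPRC, the pan-leukocyte marker, was at most 3.64 and AIF1 was listed at 0. The part of this marker difference in the receptor values was not tested.

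CFD encodes factor D, the protease that cleaves factor B. In the first batch it did not pass the filter, with 2.68, 0, 0, 0 and 4.57 normalised counts in control and 45.6, 7.41, 5.06, 128 and 160 with IL-1β, higher in every line. In the second batch CFD had 1.03, 0.991 and 159 normalised counts in control, 39.1, 63.7 and 516 with IL-1β and 12.2, 31.1 and 181 with IL-1β + IL1Ra. Here too CFD was highest with IL-1β in each line, at 3.67 against control (SE 1.85, limma adjusted p = 0.505), and was DE with the line as a block (adjusted p = 0.0313).

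Of the other list members tested in the second batch, 14 in all, 0 were DE in limma in any of the 3 comparisons without the block. In the IL-1β comparison 0 had an unadjusted p under 0.05, and with the block COLEC12 fell by 3.22 (adjusted p = 0.0308) while C5AR1 rose by 2.32 (adjusted p = 0.0361), beside CFD. Over all genes tested, 2.59% were DE downwards and 2.59% upwards with the block. In the IL1Ra comparisons 0 were DE with the block as well, with 0 and 1 genes at an unadjusted p under 0.05 without the block. COLEC12 normalised counts were 7477, 281 and 740 in control, 1639, 6.73 and 150 with IL-1β and 8935, 36.4 and 320 with IL-1β + IL1Ra, lowest with IL-1β in each line. C7 had 50.1, 101 and 124 in control, 228, 75.3 and 209 with IL-1β and 204, 155 and 207 with IL-1β + IL1Ra. Line 7 thus had less C7 with IL-1β than in control, unlike lines 6 and 8. The median over the 14 genes was 0.23 for IL-1β against control, −0.03 for IL-1β + IL1Ra against control and −0.12 against IL-1β.

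The C1q chain genes C1QA, C1QB and C1QC, whose product recruits C1r and C1s, were listed at 0 in all 19 libraries. C5 reached at most 2.63 normalised counts in any library of the first batch and 6.03 in any of the second. CFP, encoding properdin, differed by 0.42 (SE 0.53, limma adjusted p = 0.599) in the first batch. CLU, encoding the terminal pathway inhibitor clusterin, was lower with IL-1β in 5 of 5 lines, at −0.71 (SE 0.25, adjusted p = 0.0589, and 0.0175 with the block), short of the fold threshold. C4A and CD46 were not analysed here.

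**Figure D4:**
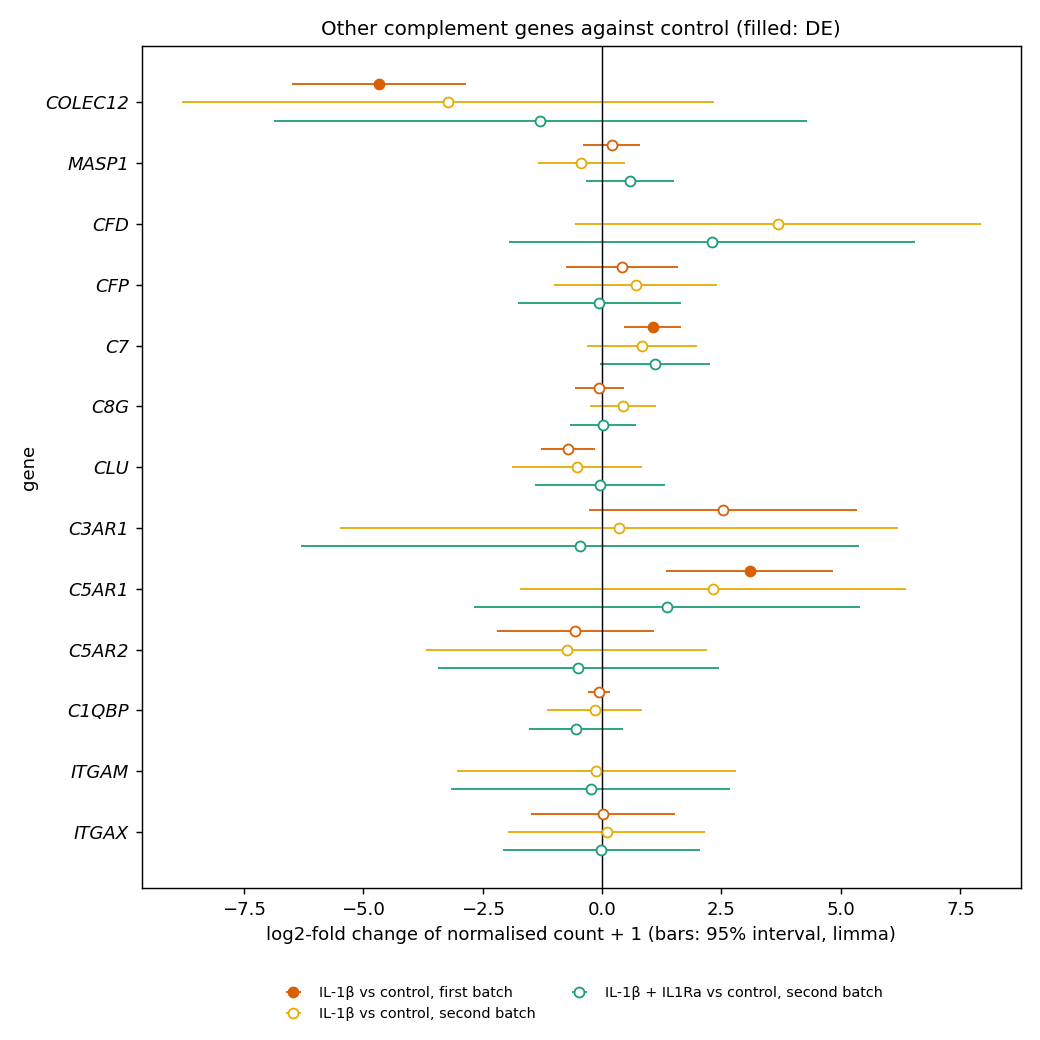
Log2-fold changes (x axis) of other complement genes (y axis) against control, for IL-1β in both batches and for IL-1β + IL1Ra, from limma without a block, with 95% intervals as bars and filled points for DE genes. The filled points are COLEC12 at −4.67, C7 at 1.06 and C5AR1 at 3.09 in the first batch, and genes without a first batch point did not pass its filter.

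C1RL, the C1r-like protease gene beside C1R in RefSeq, was looked at after its values were seen. It had 820, 1019, 999, 1528 and 1394 normalised counts in first batch controls and 303, 583, 589, 597 and 572 with IL-1β. The groups did not overlap, as for 10.2% of all genes in the downward direction. C1RL fell by 1.13 on the log2 scale (SE 0.23, limma adjusted p = 0.0056), whereas C1R in the same libraries differed by −0.34. In the second batch C1RL differed by −0.58 (SE 0.61) between IL-1β and control, lower in 3 of 3 lines and not DE.

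Markers of tendon and of other cell types were read in the same libraries. The summed level of the tendon fibroblast markers was 1037740 to 1829710 normalised counts in first batch controls. It was lower with IL-1β, at 461429 to 851536, without overlap. Most of this sum was COL1A1 and COL1A2, and the markers did not all fall. COL1A1, COL1A2, FMOD, THBS4, COMP, SCX, MKX and PDGFRB were lower with IL-1β in 5 of 5 lines. DCN and PDGFRA were higher in 5 of 5 lines. The DCN mean was 61194 in control and 101598 with IL-1β, and the PDGFRA mean was 13018 and 21973. SCX, a transcription factor of the tendon lineage, ranged from 822 to 2110 in these controls and from 9.69 to 205 with IL-1β. The tendon sum in the second batch was 264201 to 872895 in control, 322086 to 478597 with IL-1β and 157143 to 825318 with IL-1β + IL1Ra, with overlap. Endothelial markers summed to 15.2 to 91.0 normalised counts per library over both batches. Hepatocyte markers, from the main source of plasma complement, summed to 104 to 414 in first batch controls and 37.5 to 163 with IL-1β, most of it ALB. Markers of pericytes and smooth muscle summed to 3556 to 14081 in first batch controls and 1783 to 4270 with IL-1β, and were largely lower with IL-1β, with overlap. Second batch sums of these were 1159 to 5368 in control, 563 to 2132 with IL-1β and 857 to 1346 with IL-1β + IL1Ra. In the second batch the leukocyte sum was 459 to 568 in control, 509 to 2202 with IL-1β and 483 to 1695 with IL-1β + IL1Ra, and PTPRC was at most 6.46. What these markers contributed to the complement values was not tested.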

How the data were processed

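RNA of 19 libraries (TruSeq stranded mRNA kit, paired-end reads) was quantified by the authors with Salmon against EquCab3.0 transcripts, summed to genes with tximport and normalised with DESeq2 1.36 in R 4.2.1. The deposited signal values are normalised counts, in 1 table per batch, and no column was left unmapped. The 10 and 9 libraries were tested only within their batch. At a tolerance of 0.05, 68.8% to 78.8% of low values lay near whole reads, so no count model was used. Depth in reads is therefore not given per library, and genes with few counts are less precise, more so in the second batch with its lower sums.

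Genes that reached 10 normalised counts in 5 or more libraries of the first batch, or in 3 or more of the second, numbered 14719 and 16705 and were fitted on log2(normalised count + 1) with limma 3.58.1 in R 4.3.3 (lmFit, eBayes with trend) and Benjamini-Hochberg adjustment over all genes tested in a comparison. The second batch was fitted with its 3 conditions together. The code of the fits was run on simulated data with normal noise on the log2 scale and a fixed shift in randomly drawn genes. That run did not model listed zeros or the steps of low counts. The members and lists were chosen with earlier results of these data known. Named genes are the 9 members, every gene of the 45-name list that was DE, and its defining components, and C1RL was added after its values were seen. The rule for genes most like C3 could not be applied. Some genes of the list are counted but not reported by name here. Promoter motifs and sequences were not analysed here. Of the 9 members, 8 matched a RefSeq gene table of assembly TB-T2T, which differs from EquCab3.0 and was used for neighbours alone.

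The tenocyte line pairs the libraries, since libraries of a line share a donor. Deviations from condition means correlated at 0.351 to 0.578 within lines (5 pairs) and −0.356 to 0.288 between lines (20 pairs) in the first batch, and at 0.535 to 0.794 (9 pairs) and −0.625 to 0.249 (18 pairs) in the second. The study's methods name no block, so the fit was made without the line as a block, and the block was an alternative, with other pseudocounts (0.5 and 5), no filter or a filter at 50, scaling to library totals, no variance trend, 2 conditions only, adjusted p alone and leaving out each line. No comparison columns of the authors were used.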

Additional observations from a re-analysis of the deposited data

Results flagged for a closer look

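SERPING1 in the control library of line 1 stood apart from the other 4 first batch controls. Its log2(normalised count + 1) was 13.73, against 11.98 for the nearest and 11.53 for the lowest control, so the gap was 0.795 of the whole range, above Dixon's 95% critical value. Of 21 groups examined (control, IL-1β and within-line ratio of 7 genes) it was the 1 above that value, and chance alone gives about 1 in 20 groups.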

How the results depend on the processing

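Of the first batch, 2 complement genes (CFI and CD55) were DE under every alternative with all lines, and 0 to 2 when a line was left out. Leaving out a line turned the sign of 4 other genes there, none of them DE: C1R ranged from −0.86 to 0.22, C1S from −0.91 to 0.20, SERPING1 from −0.25 to 0.29 (each highest without line 1) and C2 from −0.44 (without line 3) to 1.30. In the second batch the line as a replicate block gave 1 DE gene between IL-1β and control (CD55) instead of 0. With the block and a line left out, an alternative added after seeing the data, it gave 0 to 2, the 2 being C2 and CFB without line 6, and in the first batch 2 to 3. Between IL-1β + IL1Ra and control 0 to 1 genes were DE when a line was left out (CFB without line 6). Between IL-1β + IL1Ra and IL-1β 0 genes were DE under each alternative. Among the 7 tested members the block changed no other call with all lines. Of the other complement genes it added C3AR1 in the first batch and COLEC12, C5AR1 and CFD in the second, all between IL-1β and control. After scaling to library totals the median of all genes was −0.19 for IL-1β against control in the second batch (−0.0084 before) and 0.11 for IL-1β + IL1Ra against IL-1β (0.0088 before), and the direction turned for none of the 7 genes. Why these values changed was not tested. The second batch has 3 lines and lower sums, and the intervals of several genes there are wide in the fit without a block. With the block, 2.59% of all genes were DE downwards and 2.59% upwards between IL-1β and control, against 0.341% in either direction without it. A missed threshold in the second batch does not show that a gene did not change.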
